A study of Mus musculus with 6 samples.

Results

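The microRNAs miR-146a and miR-146b come from 2 mouse hairpins, Mir146 and Mir146b, of the 1174 hairpins to which small RNA reads were matched. Their reads were taken by sequence alone: every read of at least 18 nt that matches either hairpin exactly, apart from at most 3 bases at its 3′ end, was counted and given to the 5p or the 3p arm. This gave 4 arms of the 973 arms with reads. Small RNAs were sequenced from cultured bone marrow monocytes/macrophages (BMMs) of wild type C57BL/6 mice that received PBS (control, 3 samples) or 5 pg/ml LPS, a super-low dose of this bacterial outer membrane component, for 4 h (3 samples). All 6 samples share strain, genotype and culture, although the labels name the medium as DMEM and the study's methods as RPMI. Nothing in the labels says whether the samples of a group came from separate cultures or mice, so the p-values measure the spread between these samples, which may be technical.

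A microRNA hairpin is cut into a short duplex, of which the strand that is kept guides an Argonaute protein to messenger RNAs that pair with its seed, bases 2 to 8 counted from the 5′ end. A start shifted by 1 base therefore changes the seed. In monocytes and macrophages miR-146a is known as a target of NF-kB downstream of Toll-like receptor 4, the LPS receptor, and as a brake on that pathway through Irak1 and Traf6, the kinase and the ubiquitin ligase that carry the receptor's signal.

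Mir146 lies at chr11:43374397-43374461 on the minus strand (GRCm38.p6) and overlaps no other gene of the GENCODE M21 annotation. Mir146b lies at chr19:46342762-46342870 on the plus strand, within an intron of the protein-coding gene Mfsd13a. The mature sequences of both arms are shown because the paralogs share the seed of the 5p arm and not that of the 3p arm. They are given 5′ to 3′ as RefSeq lists them, with bases 2 to 8 in capitals.
miR-146a-5p: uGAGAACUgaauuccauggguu
miR-146b-5p: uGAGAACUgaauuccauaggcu
miR-146a-3p: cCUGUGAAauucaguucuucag
miR-146b-3p: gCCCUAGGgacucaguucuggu
The 5p arms are identical at 20 of 22 positions and differ by G18A and U21C, counted from the 5′ end with the miR-146a base before the position and the miR-146b base after it. The 3p arms are identical at 4 of 22 positions without gaps. No arm outside this family among the 319 tested had a leading read with the seed GAGAACU.

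Around the 5p arm the hairpins are alike at the 5′ side and differ at the 3′ side. The windows below hold the mature 5p sequence in capitals with 3 bases before it and 5 bases after it, since the ends of the reads described further on fall within these bases.
Mir146: cucUGAGAACUGAAUUCCAUGGGUUauauc
Mir146b: cucUGAGAACUGAAUUCCAUAGGCUgugag
Both hairpins have a C before the mature start. After the mature end Mir146 goes on with an A and Mir146b with a G.

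The samples held between 2201520 and 17691405 reads, of which 61.6% to 71.0% matched a hairpin. LPS replicate 2 stood apart from the rest. It held the most reads, and sequences read a single time made up 18.6% of its distinct sequences and 67.1% to 74.6% of those in each other sample. The microRNAs listed for myeloid cells, miR-223, miR-142 and miR-21a, 3 of 3 with reads, together made up 158415 to 200530 reads per 1000000 hairpin reads (RPM) in the other 5 samples and 162141 RPM in LPS replicate 2. Most of this sum was miR-21a-5p, at 128947 RPM in LPS replicate 2 and 122793 to 164339 elsewhere. There miR-223-3p was at 5699 RPM (5607 to 6089 in the other 5), miR-142-3p higher at 7757 (3741 to 4722) and miR-142-5p lower at 18107 (23282 to 27085), each in LPS replicate 2. Markers of other cells were far lower. In LPS replicate 2 the lymphocyte marker Mir150 reached 49.2 RPM, with 14.9 to 23.2 RPM elsewhere, and the 5 epithelial markers summed to 173 RPM, with 78.2 to 98.6 RPM elsewhere. The liver marker Mir122 was at 1.83 against 0 to 0.423, the 2 erythroid markers summed to 0.641 against 0 to 1.17, and Mir126a of endothelial cells and platelets was at 50.3 against 33.8 to 46.9. Of the 3 muscle markers Mir1a-1 and Mir206 were at 0 in all samples, as were the 3 neuronal Mir124a hairpins. The part of depth and of these markers in the results below was not tested, and the comparisons of the groups are also given without LPS replicate 2.

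miR-146a-5p was an abundant arm of these cells and miR-146b-5p a less abundant one, and in each sample the order was miR-146a-5p, miR-146b-5p, miR-146a-3p and miR-146b-3p. Levels are in RPM, without a length term, since 1 read spans 1 mature molecule. In bulk samples a change in the cells present and a change in RNA per cell cannot be told apart. miR-146a-5p stood at 3971, 4515 and 2822 RPM in control replicates 1 to 3 and at 3955, 55427 and 3019 in LPS replicates 1 to 3. LPS replicate 2 alone lay outside the control range, and it lay far above it. By rank among the 973 arms miR-146a-5p held places 30, 29 and 37 in the control samples and places 30, 5 and 36 in the LPS samples.

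miR-146b-5p showed the same single high sample at a lower level. It stood at 223, 313 and 604 RPM in the control samples and at 236, 2966 and 580 in the LPS samples. Again LPS replicates 1 and 3 lay within the control range. Among all arms its ranks were 104, 95 and 76 in the control samples and 101, 36 and 76 in the LPS samples. The number of reads behind these levels ran from 4525 to 605669 for miR-146a-5p and from 537 to 32415 for miR-146b-5p.

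**Figure D1:**
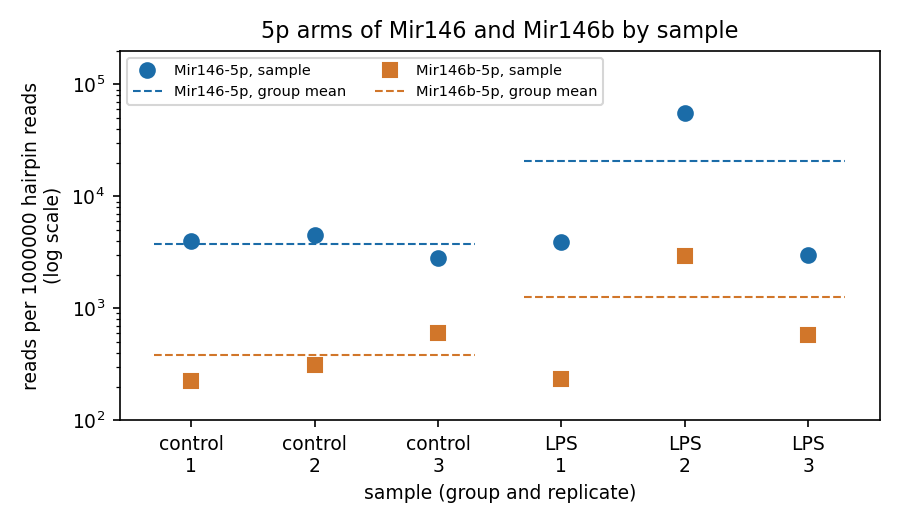
Reads per 1000000 hairpin reads (RPM, log axis) of the 5p arms of Mir146 (circles) and Mir146b (squares) in each control and LPS sample, with the mean of each group of 3 as a dashed line. LPS replicate 2 is high in both arms, at 55427 and 2966 RPM, while the other LPS samples lie among the controls.

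The control mean of miR-146a-5p was 3769 ± 865 RPM and the LPS mean 20800 ± 29991 (SD, n = 3 each), a difference smaller than the spread of the LPS samples (exact two-sided permutation test, p = 0.7, adjusted p = 0.88 over 11 measures). Without LPS replicate 2 the LPS mean was below the control mean, by a difference of -282 RPM. For miR-146b-5p the means were 380 ± 199 and 1261 ± 1487 RPM (SD, n = 3 each, exact two-sided permutation test, p = 0.6), and the difference without LPS replicate 2 was 28.0. With 3 samples against 3 this test cannot go below 0.1.

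Of the 973 arms 319 had enough reads to be tested. Over these the quasi-likelihood test of edgeR with Benjamini-Hochberg adjustment called 0 arms at 0.05, so the share called was 0% of those tested and none of the members was among them. Before adjustment 7 arms were higher with LPS and 1 lower at a p under 0.05, while DESeq2 and limma-voom also called 0 arms after adjustment. DESeq2 gave no adjusted p for miR-146a-5p and so could not call that arm. The log2 fold change of miR-146a-5p was 2.43 ± 1.12 (SE, adjusted p = 0.994 by the same edgeR test and adjustment), the fourth largest of the arms tested. That of miR-146b-5p was 1.73 ± 0.90 and that of miR-146a-3p 0.77 ± 0.69, with the same adjusted p. Without LPS replicate 2 these 3 values were -0.16, 0.04 and 0.38.

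Control and LPS samples of the same number resembled each other, and when the fit held the replicate number as a block, the values were 1.08 for miR-146a-5p, 0.98 for miR-146b-5p and 0.73 for miR-146a-3p (adjusted p = 0.853 for each, edgeR). Pair by pair, miR-146a-5p was at 0.996, 12.3 and 1.07 times its control level in pairs 1, 2 and 3. For miR-146b-5p these ratios were 1.06, 9.47 and 0.961. Pairs 1 and 3 thus lay close to equal levels in both arms and pair 2 did not, and with pair 2 left out the blocked log2 fold changes of both 5p arms were 0.04 and 0.01. Without a low-count filter edgeR called 21 arms of 973 higher, both 5p arms among them, at the same fold changes (2.45 and 1.74).

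The balance between the paralogs set replicate 3 of both groups apart from the other samples. Mir146 gave 94.7%, 93.5% and 82.4% of the 5p reads of both paralogs in the control samples and 94.4%, 94.9% and 83.9% in the LPS samples. Replicate 3 was the lowest in each group. In reads, miR-146a-5p exceeded miR-146b-5p by 17.8, 14.4 and 4.67 times in the control samples and by 16.8, 18.7 and 5.21 times in the LPS samples. The share of Mir146 averaged 90.2% ± 6.79 in control and 91.1% ± 6.22 in LPS samples (SD, n = 3 each), which did not differ beyond that spread (exact two-sided permutation test, p = 0.6). Without LPS replicate 2 the LPS mean was lower by 1.06 points (a difference of -1.06). LPS replicate 2, high in both paralogs, stood at 94.9%, against 93.5% in control replicate 2 and 94.7% in control replicate 1.

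Reads were told apart at the positions where the paralogs differ. Of the reads that cover both positions, at most 0.0371% in any sample carried the base of 1 paralog at the first and of the other at the second, and 0.172% to 0.502% carried neither pattern. Between 0.178% and 0.634% of the 5p reads matched both hairpins within the allowed 3′ bases and went to the longer match, and at most 1 read per sample was tied. The widest 95% Wilson interval of a share of Mir146 among 5p reads was ± 1.01 points, and such intervals cover counting error only, since the reads carry no molecular identifiers.

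The 5p arms differed in their 5′ start. miR-146a-5p was read in 2 forms, 1 with the RefSeq start, here the leading start, and 1 that begins 1 nt upstream with the C that precedes it in the hairpin. The leading start made up 47.1%, 62.3% and 74.4% of miR-146a-5p reads in the control samples and 46.5%, 98.0% and 77.3% in the LPS samples. The upstream start made up 52.6%, 37.4% and 25.5% in the control samples and 53.1%, 1.92% and 22.5% in the LPS samples. Thus the upstream form outnumbered the leading form in replicate 1 of both groups and made up few of the reads of LPS replicate 2. The reads that made up at least 5% of the arm in any sample are shown with the seed in capitals, since the upstream form exposes UGAGAAC in place of GAGAACU.
Leading start, 22 nt: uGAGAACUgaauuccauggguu
Leading start, 23 nt with an added U: uGAGAACUgaauuccauggguuu
Leading start, 23 nt with the next A: uGAGAACUgaauuccauggguua
Upstream start, 22 nt: cUGAGAACugaauuccaugggu
Upstream start, 23 nt: cUGAGAACugaauuccauggguu
Upstream start, 24 nt with an added U: cUGAGAACugaauuccauggguuu
The 22 nt read is the RefSeq mature sequence and made up 31.5% to 65.1% of miR-146a-5p reads. The 23 nt read of the upstream form made up 12.4% to 27.2% in the samples other than LPS replicate 2 and 1.01% there. The leading reads of 23 nt made up 5.59% to 9.03% with an added U and 3.16% to 11.7% with the next A of the hairpin. Of the other upstream reads, that of 24 nt made up 0.343% to 10.7% and that of 22 nt 0.180% to 5.48%, both lowest in LPS replicate 2. Among the 1679 mature mouse microRNAs in the RefSeq table, 2 had the seed GAGAACU, both of this family, and 0 had UGAGAAC. None of the 973 arms here had a leading read with UGAGAAC either.

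miR-146b-5p was read almost entirely from the leading start, although its hairpin has the same base before it. The upstream start made up 0.134% to 0.351% of its reads and the leading start 97.7% to 99.6%. Within samples the upstream share of miR-146b-5p was lower than that of miR-146a-5p by 31.9 points on average, in 6 of 6 samples (a difference of -31.9 ± 19.7, SD, exact two-sided sign-flip permutation test over 6 samples, p = 0.0312, adjusted p = 0.0375 over 6 measures chosen after the data were seen). In miR-146a-5p this share was alike in control and LPS replicates 1 (52.6% and 53.1%) and 3 (25.5% and 22.5%), and not in replicates 2 (37.4% and 1.92%). The 6 samples are therefore not fully independent. In LPS replicate 2 the difference was smallest, at -1.57 points, and without that sample the mean was -38.0 points, with 0.0625 as the smallest p that 5 samples allow.

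**Figure D2:**
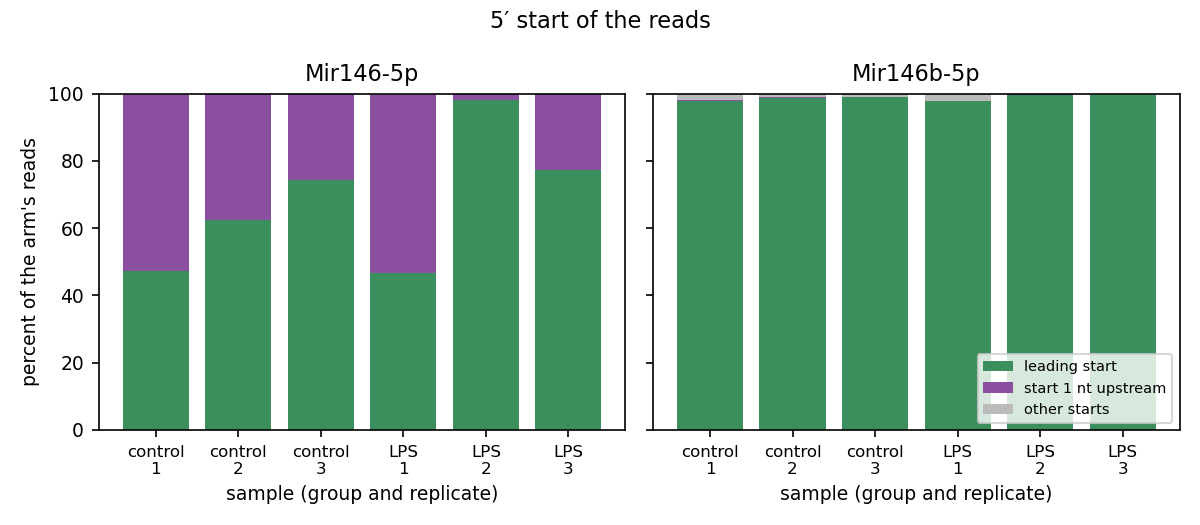
Percent of reads of miR-146a-5p (left) and miR-146b-5p (right) by 5′ start in each sample, as stacked bars of the leading start, the start 1 nt upstream and all other starts. The upstream start takes 22.5% to 53.1% of miR-146a-5p in the samples other than LPS replicate 2, 1.92% there, and under 1% of miR-146b-5p throughout.

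Taken as levels, the high miR-146a-5p of LPS replicate 2 lay in the leading form. This form stood at 1871, 2815 and 2098 RPM in the control samples and at 1840, 54337 and 2335 in the LPS samples. The upstream form stood at 2088, 1687 and 719 RPM in the control samples and at 2100, 1062 and 679 in the LPS samples. In LPS replicate 2 the leading form was 19.3 times the highest control sample, whereas the upstream form lay within the control range, at 0.509 times the highest control sample. Neither form differed between the groups beyond the spread of the samples (leading form 2261 ± 493 against 19504 ± 30167 RPM, exact permutation test, p = 0.7, upstream form 1498 ± 704 against 1280 ± 735 RPM, p = 0.8, SD, n = 3 each). Without LPS replicate 2, a setting added after the data were seen, the LPS mean minus the control mean was -174 RPM for the leading form and -109 RPM for the upstream form.

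**Figure D3:**
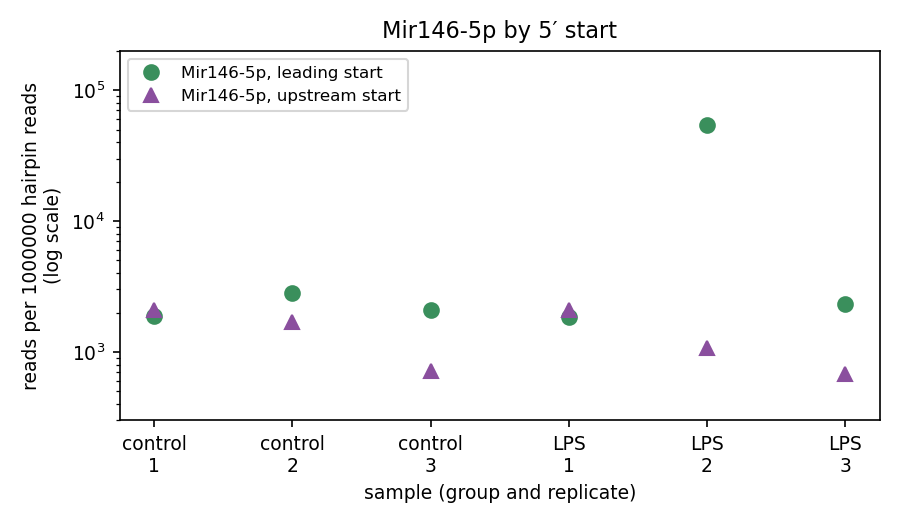
Reads per 1000000 hairpin reads (RPM, log axis) of miR-146a-5p reads with the leading start (circles) and with the start 1 nt upstream (triangles) in each sample. In LPS replicate 2 the leading form is at 54337 RPM and the upstream form at 1062, between the lowest and highest control samples.

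A shift of starts of this size was rare among the other arms surveyed. Arms merged over several hairpins were left out of the survey, also where they had many reads. In 78 arms with at least 500 reads in every sample, the share of the leading start in LPS replicate 2 differed from the median of the other 5 samples by a median of -0.00974 points. It lay above the other 5 samples in 19 arms, below them in 20 and among them in 39. Among these 78 arms miR-146a-5p had the largest upward shift, 35.7 points, followed by miR-140-3p with 19.8, and miR-142-3p had the largest downward shift, -21.0 points. The shift of miR-146b-5p was 0.878 points. Over the other 5 samples the median upstream share of an arm was 0.107%, and in 2 of the 78 arms it exceeded 20%, miR-101a-3p with 40.8% and miR-146a-5p with 37.4%.

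The 3′ ends separated the paralogs as well. miR-146a-5p reads matched their hairpin up to the RefSeq end in 77.9% to 81.7% of reads. miR-146b-5p reads reached 2 nt past the RefSeq end in 69.5% to 76.6% and 1 nt past it in 18.9% to 27.5%, and stopped at the RefSeq end in 1.38% to 5.28%. The leading miR-146b-5p reads therefore differ from the RefSeq entry, and they are shown with the seed in capitals.
miR-146b-5p, 24 nt: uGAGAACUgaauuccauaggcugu
miR-146b-5p, 23 nt: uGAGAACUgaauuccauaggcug
The 24 nt read made up 65.4%, 66.5% and 67.3% of miR-146b-5p reads in the control samples and 71.1%, 68.5% and 68.1% in the LPS samples. The sample values of these groups did not overlap, with means of 66.4% ± 0.931 and 69.3% ± 1.63 (SD, n = 3 each). The means differed by 2.85 points, and by 3.22 points without LPS replicate 2 (exact two-sided permutation test over all 6 samples, p = 0.1, the smallest possible, adjusted p = 0.88 over 11 measures). This was the only 1 of the 11 measures compared between the groups without overlap of the sample values. The Wilson intervals, which cover counting error only, reached ± 4.10 points here, more than the difference of the means. The interval of each LPS sample overlapped that of each control sample. In replicate 3 the intervals ran from 64.8% to 69.7% in control and from 65.0% to 71.1% in LPS. In LPS replicate 2 the RefSeq end of miR-146b-5p was the most frequent, at 5.28%, against 1.38% to 2.24% in the other 5 samples.

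**Figure D4:**
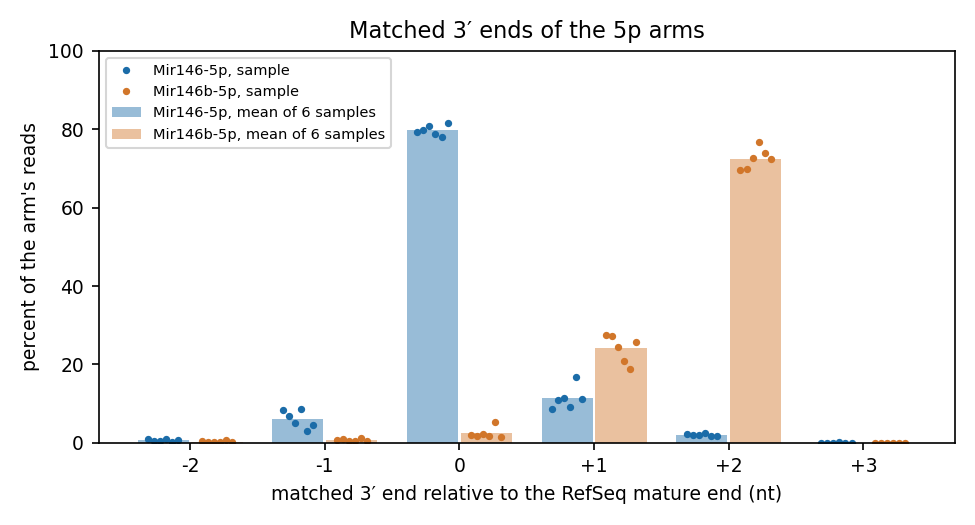
Percent of the reads of each 5p arm by the position of the matched 3′ end relative to the RefSeq mature end, in nt, with 1 point per sample and bars for the mean of the 6 samples. miR-146a-5p ends at 0 in 77.9% to 81.7% of reads, and miR-146b-5p at +2 in 69.5% to 76.6%.

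The arm with more uniform reads was miR-146b-5p. Its most frequent read made up 65.4% to 71.1% of the arm, against 31.5% to 65.1% for miR-146a-5p. The share of the leading read was higher in miR-146b-5p by 21.4 ± 13.4 points (SD), in 6 of 6 samples (exact two-sided sign-flip permutation test over 6 samples, p = 0.0312, the smallest possible, adjusted p = 0.0312 over 3 measures). The difference ran from 3.45 points in LPS replicate 2 to 39.6 points in LPS replicate 1, and without LPS replicate 2 it averaged 25.0 points. When only reads that match over their whole length were counted, the difference was 13.1 points and no longer passed (exact sign-flip permutation test, p = 0.0938).

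Bases at the 3′ end that do not match the hairpin, such as added U or A, were more frequent in miR-146a-5p. They were present on 24.8%, 21.5% and 18.8% of its reads in the control samples and on 25.1%, 17.6% and 19.6% in the LPS samples. In miR-146b-5p the shares were 3.68%, 4.66% and 5.74% in the control samples and 4.68%, 7.13% and 5.41% in the LPS samples. The arms did not overlap, and the difference was -16.0 ± 4.22 points (SD), in 6 of 6 samples (exact two-sided sign-flip permutation test over 6 samples, adjusted p = 0.0312 over 3 measures, -17.1 points without LPS replicate 2). Unmatched tails of U alone were present on 10.3% to 18.4% of miR-146a-5p reads and on 1.68% to 2.67% of miR-146b-5p reads. Since Mir146 goes on with an A after the mature end, an added A cannot be told apart from the hairpin's own base there, and the A-only tails of miR-146a-5p, 3.36% to 4.86%, leave those reads out. Likewise Mir146b goes on with a G and then a U, so a U added to its 23 nt read cannot be told apart from the hairpin's own base, and the U-only share of miR-146b-5p leaves those reads out. The contrast in U-only tails between the paralogs covers unmatched bases only.

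In miR-146a-5p the start and the tail went together. U-only tails were present on 22.1%, 17.9% and 19.6% of upstream reads in the control samples and on 22.6%, 20.04% and 18.9% in the LPS samples. Of the reads with the leading start they were present on 14.005%, 12.5% and 10.3% in the control samples and on 13.8%, 10.1% and 11.2% in the LPS samples. The upstream form was the higher in each sample, by 8.21 ± 1.63 points (SD, 6 of 6, exact two-sided sign-flip permutation test, p = 0.0312, adjusted p = 0.0375 over the same 6 measures). LPS replicate 2 had the same direction and the largest difference, 9.98 points, and the mean without it was 7.85 points. A-only tails did not differ by start beyond the spread (0.185 ± 0.676 points, higher in 4 of 6 samples, exact p = 0.469, and 0.377 points without LPS replicate 2).

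**Figure D5:**
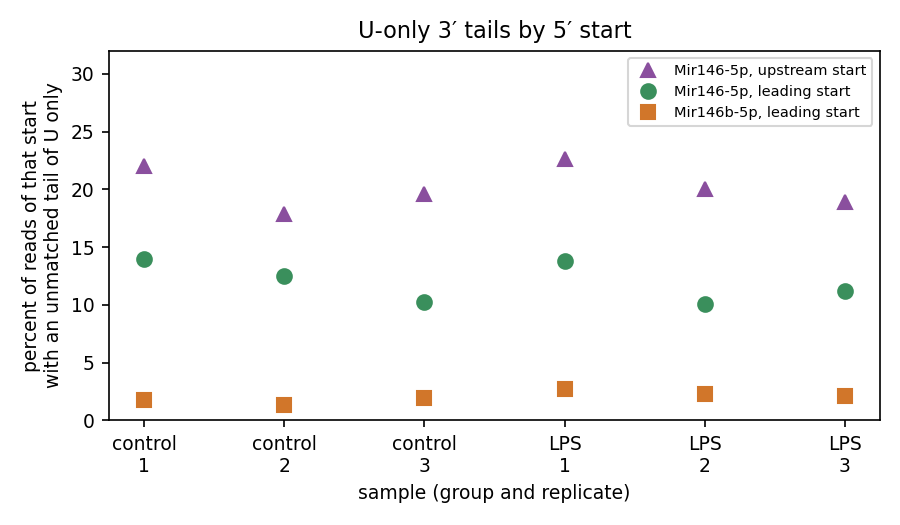
Percent of reads with an unmatched 3′ tail of U only in each sample, for miR-146a-5p reads with the upstream start (triangles), miR-146a-5p reads with the leading start (circles) and miR-146b-5p reads with the leading start (squares). The upstream reads lie above the leading reads in each sample, and miR-146b-5p lies at 1.32% to 2.74%.

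The matched 3′ end differed by start as well. It fell 1 nt short of the RefSeq end in 10.6% to 12.8% of upstream reads and in 2.63% to 3.60% of leading reads. The difference was 8.70 ± 0.645 points, or 8.76 without LPS replicate 2 (SD, 6 of 6 samples, exact sign-flip permutation test, adjusted p = 0.0375 over 6 measures). These are the same 6 measures chosen after the data were seen, and the test takes the 6 samples as independent. The matched end went 1 nt past the RefSeq end less often in upstream reads, by a difference of -4.03 ± 1.45 points in 6 of 6 samples with the same p, and by -3.48 points without LPS replicate 2. That end was on 16.9% of leading reads in LPS replicate 2 and on 10.3% to 12.6% in the other 5 samples. Most reads of both starts still shared the RefSeq end, 75.3% to 77.4% of upstream reads and 78.0% to 83.7% of leading reads. The upstream form was accordingly 23 nt long in 52.2% to 57.0% of its reads and the leading form 22 nt long in 66.6% to 70.8%.

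The 3p arms were scarce. Mir146 gave 32, 16 and 5 reads of its 3p arm in the control samples and 46, 219 and 8 in the LPS samples, which is 0.314%, 0.206% and 0.0749% of its reads in control and 0.366%, 0.0361% and 0.176% in LPS samples. These counts include reads of 30 nt or more, longer than the mature arm. They numbered 0, 3 and 0 in the control samples and 3, 18 and 1 in the LPS samples. LPS replicate 2 had the most 3p reads and the lowest 3p share. As a level, miR-146a-3p reached 20.04 RPM in LPS replicate 2 and 2.11 to 14.5 RPM in the other 5 samples, a smaller departure than that of the 5p arm. Its most frequent read was the RefSeq sequence shown above. Mir146b gave 0, 1 and 0 reads of its 3p arm in the control samples and 1, 2 and 1 in the LPS samples. The read of LPS replicates 1 and 3 was the RefSeq sequence. By the limit of 3 counts over the total, a count of 0 allows a 3p share of up to 0.526% in control replicate 1 and 0.210% in control replicate 3, where the upper ends of the 95% Wilson intervals are 0.669% and 0.268%. The 3p share was lower in Mir146b than in Mir146, with a difference of -0.122 ± 0.121 points (SD, 6 of 6 samples, exact two-sided sign-flip permutation test, adjusted p = 0.0312 over 3 measures). That comparison rests on at most 2 reads of Mir146b per sample, and outside LPS replicate 2 the share of Mir146 lay within the 95% Wilson interval of the share of Mir146b. Without LPS replicate 2 the mean difference was -0.141 points.

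The arms that varied most like a member changed when LPS replicate 2 was left out. Over the 6 samples miR-155-5p came nearest to miR-146a-5p. Its Pearson correlation with miR-146a-5p, of log2(counts per 1000000 reads + 1) over the 6 samples, was 0.981, and 0.79 over the 5 samples without LPS replicate 2. miR-185-5p (0.973) and miR-3068-5p (0.964) came next and fell to -0.06 and -0.42 without that sample. Over those 5 samples the nearest arms were miR-99b-3p (0.995), also of the list of LPS-responsive hairpins, miR-99a-5p (0.995) and miR-34c-5p (0.979), with -0.01, -0.97 and -0.07 over all 6. The arms most like miR-146b-5p were miR-142-3p (0.996), miR-872-3p (0.993) and miR-140-5p (0.992), with 0.993, 0.964 and 0.974 without LPS replicate 2, when miR-30b-5p (0.998), miR-106b-5p (0.998) and miR-702-3p (0.995) came nearest. Between the paralogs the correlation was 0.825 over 6 samples and -0.854 over 5. These are descriptions of arms read in the same libraries, over samples that differ in depth.

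miR-155-5p, which promotes inflammatory macrophage responses, stood at 62.2, 75.3 and 49.0 RPM in the control samples and at 72.6, 212 and 65.4 in the LPS samples. It too was high in LPS replicate 2 alone, at 2.82 times the highest control sample, with a log2 fold change of 0.89 ± 0.50 (SE), or 0.11 ± 0.24 without LPS replicate 2. Of the 23 arms with reads from the list of 14 LPS-responsive hairpins, 16 were tested and 0 called (0% of all arms tested called). Their log2 fold changes ran from -0.23 to 0.89 with a median of 0.04, beside a median of 0.00 over all arms tested, and 9 of the 16 were positive, against 50.8% of all arms tested. Without LPS replicate 2, a setting added for the list after the data were seen, they ran from -0.24 to 0.76 with a median of -0.03, beside -0.03 over all arms tested. miR-125a-5p, which also acts on Toll-like receptor signalling, was at 3741 to 5546 RPM in the control and 3908 to 7209 in the LPS samples. miR-21a-5p, among the most abundant arms, was at 123675 to 164339 in the control and 122793 to 160373 in the LPS samples, with LPS replicate 2 at 128947. miR-132-3p reached 39.99 RPM in LPS replicate 2 and 11.1 to 25.4 RPM in the other 5 samples, whereas miR-212-3p of the same cluster had 4 to 19 reads per sample and was not highest there. Of the list's tested arms, 5 of 16 were highest in LPS replicate 2, beside 30.7% of all 319. They were miR-125a-3p, miR-125a-5p, miR-132-3p, miR-147-3p and miR-155-5p. Among the list's arms too scarce to be tested, only miR-147-5p was highest there, with 122 reads (11.2 RPM) against 0 or 1 read in each other sample.

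The best known targets of miR-146 hold matches to the seeds of both start forms. The 3′ UTRs of GENCODE M21 (the longest of each gene, sense strand) were searched for AGUUCUC, the complement of bases 2 to 8 of the leading form, and for GUUCUCA, the complement of bases 2 to 7 of the leading form with an A after it and also of bases 2 to 8 of the upstream form. A run of 8 bases that holds both motifs thus matches the seeds of both forms. Of 20979 genes' 3′ UTRs, 11.1% held the first motif and 12.3% the second. The sites of Irak1 and the first site of Traf6 and of Irak2 with all 8 bases are shown as DNA, with the match in capitals, since each of them holds both motifs.
Irak1, chrX:74015393-74015400, minus strand: gactcagaggtcaaAGTTCTCA
Irak1, chrX:74015377-74015384, minus strand: ttctcatgcttggaAGTTCTCA
Traf6, chr2:101697959-101697966, plus strand: ccgctctggtgttgAGTTCTCA
Irak2, chr6:113694266-113694273, plus strand: ccggtgtctccgcaAGTTCTCA
Irak1 held 3 matches in 1526 bases, 2 of them with all 8 bases, where 21.3% of equally long UTR starts held a match to either motif. Traf6 held 4 matches with all 8 bases in 4170 bases (49.5% of equally long UTR starts held a match), and Irak2, a kinase of the same pathway, held 3 matches in 1246 bases, 1 of them with all 8 bases (17.5%). Irak3, which encodes the inhibitor IRAK-M, and Scarb1, which encodes the scavenger receptor SR-B1, are genes of this study and held 0 matches to either motif in 1067 and 779 bases (15.03% and 10.7%). UUCUCAA, the complement of bases 2 to 7 of the upstream form with an A after it, was present in 14.6% of all UTRs. The named genes were not searched for it. Target messenger RNAs were not measured in these samples, and a match is a description of the letters only.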

How the data were processed

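Small RNAs of 6 samples of BMMs were sequenced. The authors trimmed adaptors with perl scripts and Btrim64, and deposited raw counts of each distinct read sequence of 11 to 40 nt per sample, unnormalized and without microRNA names. The submitters' processing notes list mm9, but reads carry no coordinates, so here they were matched to the hairpins of GENCODE M21 (GRCm38). Matching needed 15 exact bases at the 5′ end and at most 3 unmatched bases at the 3′ end, so a mismatch elsewhere loses the read. A read matching several hairpins went to the longest match, the arm was set by the hairpin's midpoint, and arms sharing at least 50% of their reads were merged. Mature sequences and coordinates are from RefSeq.

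Arms passing edgeR's filterByExpr were normalized by TMM and compared by the quasi-likelihood test of edgeR 4.0.16 with Benjamini-Hochberg adjustment at 0.05 (R 4.3.3). DESeq2 1.42.0 and limma 3.58.1 served as alternatives, besides other filters, matches and samples left out. The common dispersion was 0.1091. Shares and levels were compared by exact permutation tests (Python 3.11.15, scipy 1.17.1), with 95% Wilson intervals. Scripts were tested on simulated data.

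Control and LPS samples with the same number in their titles were taken as pairs, a pairing that the titles themselves do not state. Deviations from the group means correlated at 0.595, 0.259 and 0.277 between same-numbered samples, and from -0.387 to 0.154 otherwise, over 319 arms.

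The members, the lists of LPS-responsive microRNAs and cell markers, and the tests were chosen with earlier results of these data known. The text names all arms of both hairpins, each read of at least 5% of a 5p arm in any sample and the leading read of each 3p arm. It names the 3 most similar arms, the genes searched for seed matches and only some of the listed LPS-responsive microRNAs. The survey of starts was added after the data were seen, and arms are named from it by size of shift or share.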

Additional observations from a re-analysis of the deposited data

How the results depend on the processing

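No comparison of the groups passed its threshold in the main tests. The exception among the alternatives was the fit without a low-count filter, where 21 arms were called and the log2 fold changes of miR-146a-5p and miR-146b-5p were 2.45 and 1.74, and the cause was not tested. DESeq2 gave no p for miR-146a-5p, which its outlier filter left out. The low reads of miR-146b-3p kept it out of the filtered tests. The paired fits, which hold the replicate number as a block, gave log2 fold changes of 1.08 for miR-146a-5p, 0.98 for miR-146b-5p and 0.73 for miR-146a-3p, and the block changed no call. Leaving out each sample in turn, the difference of LPS minus control ran from -3.04 to 4.45 points for the share of Mir146 among 5p reads, from -0.0921 to 0.0726 for the 3p share of Mir146, from -0.00806 to 0.0849 for the 3p share of Mir146b and from -3.12 to 0.640 for the unmatched share of miR-146a-5p. It ran from -282 to 25922 RPM for miR-146a-5p, whose log2 fold change ran from -0.16 to 2.98, and both lowest values were those without LPS replicate 2. Within samples, leaving out any 1 sample left the paralogs apart in the same direction, by 17.8 to 25.0 points for the leading read, -17.1 to -15.0 for unmatched bases and -0.143 to -0.0838 for the 3p share, with too few samples to pass. With exact matches only, these differences were 13.1 points for the leading read (exact permutation test, p = 0.0938) and -0.139 for the 3p share (exact permutation test, p = 0.0312, as in the main test, and 0.0625 adjusted over the 2 measures left), and unmatched bases have no value there. Depth limits the 3p arms most, with 0 to 2 reads of miR-146b-3p per sample.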
